A study of Rattus norvegicus with 6 samples.

Results

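The endoplasmic reticulum (ER) folding machinery was followed in rat jejunum through 10 genes: the chaperones Hspa5, Hsp90b1, Calr and Canx, the protein disulfide isomerases Pdia3, Pdia4 and Pdia6, and the BiP partners Dnajb9, Sdf2l1 and Dnajc3. Members were all probes whose RefSeq accession belongs to one of these genes, which gave 13 of the 41012 probes on the array and 10 of its 13837 gene symbols. All 13 passed the filter on dim probes, as did 31367 probes in total. Hsp90b1, Canx and Dnajb9 have more than 1 probe each. The study asked what heat combined with shaking does to the small intestine. Male Sprague-Dawley rats aged 6 weeks (200 ± 20 g) were either left as controls at 25°C or, in the S3d group, stressed for 2 h per day on 3 days at 35°C with shaking at 0.1 g. Jejunal RNA was read on rat arrays from Agilent in 1 colour, and each group had 3 arrays. Per the series description, each sample pooled 3 rats from a group of 10, so p-values measure the spread between pools.

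Secreted and membrane proteins enter the ER unfolded. Hspa5 (BiP) binds exposed hydrophobic stretches, Calr and Canx hold newly glycosylated proteins through their sugar trees, and the disulfide isomerases form and rearrange cysteine bridges. When unfolded proteins pile up, the sensors ATF6, IRE1 and PERK start the unfolded protein response, whose classical output is more transcription of these chaperones. The jejunal epithelium depends on this machinery because enterocytes export brush border enzymes and lipoproteins, while goblet and Paneth cells export mucins and antimicrobial proteins.

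Several properties of the arrays bear on every value that follows. The authors deposited scanner files and a table of normalized log2 values, and the group labels of these sources are exchanged. Each of the 6 table columns had a Spearman's rho of 1.00 (across all probes) with the scanner file of the other group and same replicate number, against 0.942 to 0.952 with the scanner file of its own label. No sample was reassigned. All values are given by the scanner labels, as arrays labelled S3d minus arrays labelled control. Under its own labels the table gave the opposite sign to these values for 9 of the 13 member probes, and for all 13 where the scanner values were quantile-normalized like the table. The study also measured genes by real-time PCR, an assay separate from the arrays, and gives Atf4, Atf6, Casp8, Casp9, Casp12, Dap, Lcn2 and Zbtb16 as raised by stress and Mtor and Herpud1 as lowered. On the arrays by the scanner labels, the brightest probe was lower for the first 8 (-2.69 for Lcn2 to -0.17 for Casp9), higher for Mtor (1.24) and lower for Herpud1 (-0.32, and 0.29 on its second probe). By the table's labels the first 8 were higher (0.28 to 2.75), Mtor was lower (-1.17) and Herpud1 was -0.080 and -0.43. The PCR directions thus run with the table's labels, which makes these the likely ones and the direction by the scanner labels likely the reverse of the stress effect, although the scanner files themselves do not settle it. Arrays are written below by their scanner label, such as control 3 or S3d 1. The 3 arrays of a group shared a slide, 0 slides held both groups, and 450 days lay between the scans of the slides. Slide, scan and group cannot be told apart. Arrays labelled S3d were brighter, with a 75th percentile of 1458 to 1558 against 415 to 430.

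One array stood apart by the markers of another tissue. All 10 pancreatic acinar markers, which encode digestive enzymes and should be nearly silent in jejunum, were highest on the array labelled S3d 1, by 7.91 to 14.1 on the log2 scale above the other arrays labelled S3d. Their summed level, in multiples of the array's 75th percentile, was 2361 on S3d 1, 2.03 and 3.36 on the other arrays labelled S3d, and 1.22 to 1.69 on the arrays labelled control. Exocrine pancreas is rich in ER chaperones, so results are also given without this array. Pdia2 and Erp27, genes of the disulfide isomerase family that the exocrine pancreas expresses strongly, read 3.41 and 3.42 on the array labelled S3d 1. On the other 5 arrays they read between -6.30 and -3.83. Over all arrays neither passed the test (adjusted p = 0.37 and 0.71), and without S3d 1 Pdia2 was -0.36 (adjusted p = 0.11). Erp27 was not well above background on S3d 3, which leaves S3d 2 as its 1 measured array of that label without S3d 1, so no difference is given for it. The members showed no such jump. The array labelled S3d 1 was the highest of its group for 4 of 12 member probes with all values and the lowest for 2.

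The promoters of these genes carry the textbook element of the unfolded protein response, the ER stress response element (ERSE), which is CCAAT and CCACG with any 9 bases between them. The first part binds NF-Y and the last part ATF6 or XBP1. Both strands were searched from 250 bases upstream to the base before the annotated start, in 33469 RefSeq promoters of the assembly GRCr8. The full element stood in 22 promoters (0.0657%). Of the 10 members, 8 had a promoter in the RefSeq table and 5 of those held the element: Hspa5, Hsp90b1, Calr, Canx and Dnajc3. These 5 are shown because they are the members that share a known control element, with its outer parts in capitals, read 5′ to 3′ on the gene's strand.
Hspa5, chr3:38452766-38453015, plus strand: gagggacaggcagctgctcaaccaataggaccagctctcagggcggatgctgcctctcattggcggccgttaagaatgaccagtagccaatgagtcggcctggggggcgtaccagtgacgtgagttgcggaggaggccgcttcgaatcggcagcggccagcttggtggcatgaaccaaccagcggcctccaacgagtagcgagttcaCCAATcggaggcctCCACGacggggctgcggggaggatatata
Hsp90b1, chr7:23012294-23012543, minus strand: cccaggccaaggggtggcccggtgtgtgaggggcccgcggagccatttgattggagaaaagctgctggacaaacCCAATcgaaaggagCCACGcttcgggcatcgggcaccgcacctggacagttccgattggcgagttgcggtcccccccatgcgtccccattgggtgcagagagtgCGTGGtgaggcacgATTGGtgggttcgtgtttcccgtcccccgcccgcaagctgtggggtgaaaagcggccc
Calr, chr19:40213117-40213366, plus strand: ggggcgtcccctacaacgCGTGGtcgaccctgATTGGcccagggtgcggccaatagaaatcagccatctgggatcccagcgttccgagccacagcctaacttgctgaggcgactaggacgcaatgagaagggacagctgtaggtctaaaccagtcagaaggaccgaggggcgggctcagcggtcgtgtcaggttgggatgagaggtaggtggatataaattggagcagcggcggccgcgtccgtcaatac
Canx, chr10:35157858-35158107, minus strand: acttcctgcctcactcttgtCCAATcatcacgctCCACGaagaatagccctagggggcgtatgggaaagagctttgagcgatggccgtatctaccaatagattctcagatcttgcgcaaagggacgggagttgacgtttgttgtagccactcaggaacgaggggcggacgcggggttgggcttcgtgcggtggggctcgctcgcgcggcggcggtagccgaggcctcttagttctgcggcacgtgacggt
Dnajc3, chr15:102432417-102432666, plus strand: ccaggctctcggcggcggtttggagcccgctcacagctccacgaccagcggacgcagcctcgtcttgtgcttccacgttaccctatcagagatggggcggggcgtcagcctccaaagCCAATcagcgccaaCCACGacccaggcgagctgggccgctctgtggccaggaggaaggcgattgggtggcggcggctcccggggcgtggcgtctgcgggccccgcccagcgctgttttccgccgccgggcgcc

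Hsp90b1 was the member with more than 1 copy, 1 on each strand, from -176 to -158 and from -72 to -54 relative to the start. The element lay nearest to the start in Hspa5, from -43 to -25, and farthest in Calr, from -232 to -214 on the reverse strand, with Canx (-230 to -212) close to that distance. Dnajc3 held it from -133 to -115. The last part alone (CCACG, within the ERSE and elsewhere) was found in 7 of the 8 member promoters against 27.2% of all promoters, and the first part (CCAAT) in 8 of 8 against 34.0%. Neither ERSE-II (ATTGG and CCACG with 1 base between them, 14 promoters in all) nor the UPRE core (TGACGTGG, 174 promoters) was found in any of the 8 windows. No match says only that these letters are not in the window. The promoters of Dnajb9, Pdia4 and Sdf2l1 held no full ERSE there, and Pdia3 and Pdia6 are named only.

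**Figure D1:**
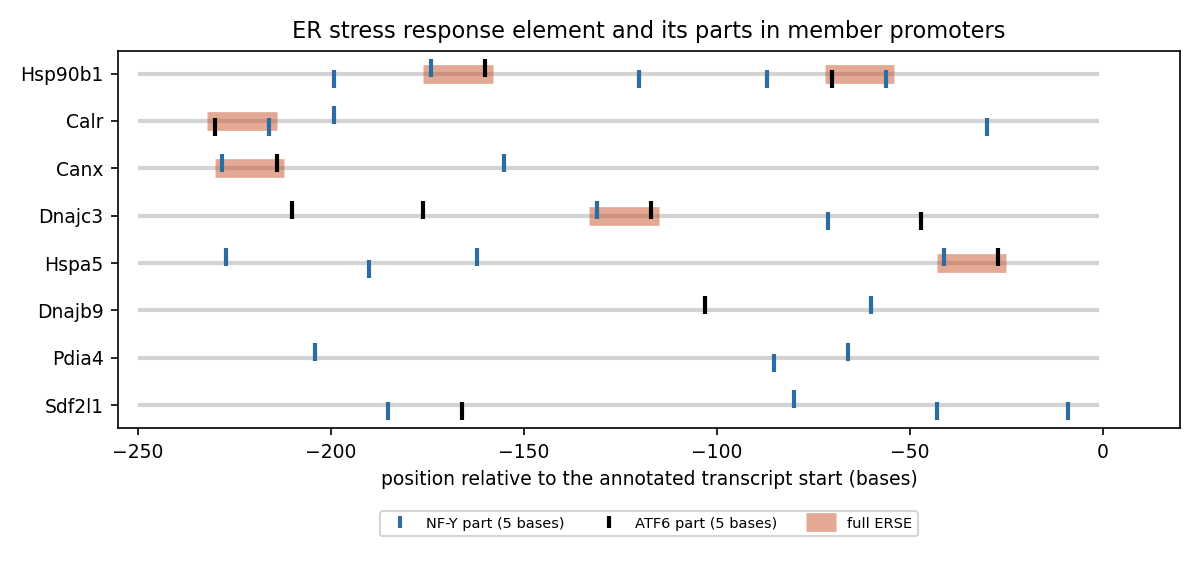
Matches in the 250 bases before the annotated start of 8 member promoters, with position in bases relative to the start on the x axis. Orange blocks are full ER stress response elements, and blue and black ticks are its 5-base NF-Y and ATF6 parts, drawn above the line for the forward and below it for the reverse strand. Hsp90b1 held 2 full elements, Hspa5, Calr, Canx and Dnajc3 held 1, and Dnajb9, Pdia4 and Sdf2l1 held none.

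Relative to the 75th percentile of each array, the members were lower on the arrays labelled S3d. Of the 13 probes, 9 were called at an adjusted p under 0.05 in limma, all of them lower, and 6 of these by at least 1.5-fold. The background is high: 74% of all tested probes were called, 34.5% lower and 39.5% higher, and 52.5% were called with at least 1.5-fold, 23.3% lower. For 10 of the 13 member probes, all lower, the ranges of the groups were apart, as for 78.9% of all tested probes (36.6% lower). The share of members called was thus close to the background, whereas their direction was not divided: all 13 differences were below 0, against 46.4% of all tested probes. That background was not matched for brightness: all 13 members averaged above the 75th percentile on the arrays labelled control, by 0.04 to 6.88. Hspa5, the brightest, moved from -0.47 to 0.28 under quantile normalization, and the second Canx probe, the dimmest, stayed at -0.17. The median difference was -0.56 on the log2 scale over the members and 0.08 over all tested probes. This lean depended on the scaling. Under quantile normalization 9 of 13 (69.2%) were below 0 against 49.5% of all tested probes, with medians of -0.31 and 0.01. Under normexp background correction 9 of 13 were below 0 against 73.7%, with medians of -0.13 and -0.69, so the members then stood above the median probe. Counted on the brightest probe of each gene, 7 of 10 members were called, all lower, where 73.5% of 11489 named genes were called and 37.4% were lower. The direction here, by the scanner labels, opposes that of the study for Atf4, Atf6, Os9 and Eif2ak3, among others. Under the table's own labels, which the PCR directions favour, 9 of the 13 member probes were above 0, and of the 7 called 6 were higher and Pdia6 was lower. Of all 41012 probes in that setting, 23502 were called, 12404 of them higher, and 19596 were below 0. In bulk tissue, fewer cells of a type and less RNA per cell cannot be told apart.

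**Figure D2:**
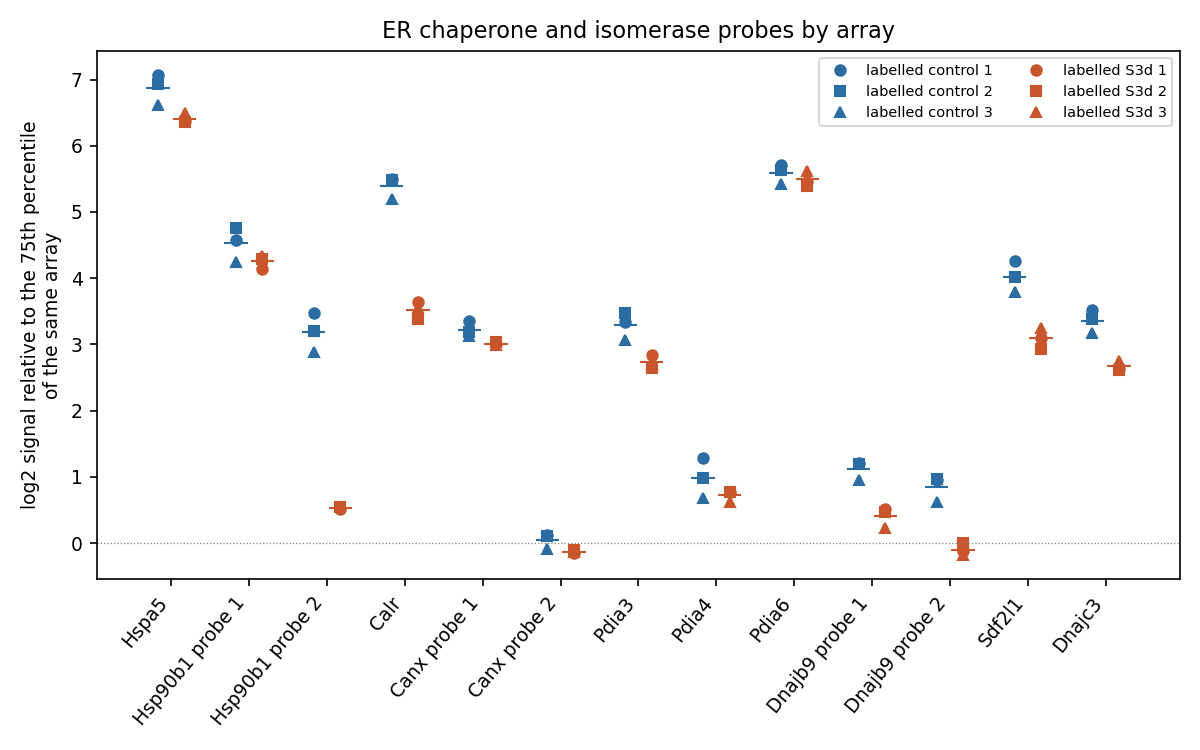
Log2 processed signal relative to the 75th percentile of the same array (y axis) for the 13 member probes, with 1 point per array and a line at each group mean (n = 3 arrays, or 2 for the second Hsp90b1 probe on the arrays labelled S3d). Calr and the second Hsp90b1 probe show the widest gaps, and the groups overlap for the first Hsp90b1 probe, Pdia4 and Pdia6.

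Among the lectin chaperones, Calr and Canx behaved differently. Calr, the soluble lectin and calcium store of the ER lumen, read 5.49, 5.49 and 5.20 on the arrays labelled control, against 3.63, 3.38 and 3.56 on those labelled S3d, on the log2 scale relative to the 75th percentile. The groups were far apart, and the difference of -1.87 (SE 0.11, adjusted p = 3.7e-05) was 3.66-fold, a size that 3.17% of tested probes reached in this direction. Before scaling, the processed signal of Calr was 15843 to 19152 on the arrays labelled control and 16215 to 18338 on the others, so its signal did not follow the rise in array brightness. Canx, the membrane-bound lectin, read 3.36, 3.19 and 3.12 against 3.00, 3.04 and 2.99. That difference was small, -0.21 (SE 0.08, adjusted p = 0.049), and turned to 0.04 under quantile normalization (adjusted p = 0.64). The second Canx probe gave -0.17 (adjusted p = 0.092). The Canx probes were alike in size and direction under this scaling, but not under quantile normalization (0.041 and -0.17) or normexp (0.32 and -0.15), and the call of the first was lost when any of 5 of the 6 arrays was left out (without S3d 1, adjusted p = 0.095).

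Hspa5 and its partners formed a graded group. Hspa5, the lumenal Hsp70 and the usual readout of the unfolded protein response, read 7.07, 6.93 and 6.62 on the arrays labelled control, against 6.38, 6.35 and 6.49 on those labelled S3d. The groups did not overlap, but the gap between control 3 and S3d 3 was small, and the difference was -0.47 (SE 0.13, adjusted p = 0.016), which turned to 0.28 (adjusted p = 0.080) under quantile normalization. It was -0.46 without S3d 1 (adjusted p = 0.042), and the call was lost without control 2 or without S3d 2 (adjusted p = 0.051 in each). Sdf2l1, which works with BiP and its Hsp40 partners, read 4.25, 4.02 and 3.78 against 3.09, 2.93 and 3.25. That was 1.90-fold lower (-0.93, SE 0.15, adjusted p = 0.0016) and -0.93 without S3d 1.

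The J-domain proteins Dnajb9 and Dnajc3 drive the ATPase of BiP and also restrain the sensors IRE1 and PERK, respectively. Dnajb9 read 1.21, 1.20 and 0.96 on the arrays labelled control, against 0.51, 0.47 and 0.23 on those labelled S3d. Both of its probes were lower, by 1.64-fold (-0.72, SE 0.11, adjusted p = 0.0016) and 1.92-fold (-0.94, SE 0.11, adjusted p = 0.00054). Dnajc3 read 3.52, 3.38 and 3.17 against 2.63, 2.61 and 2.76, with no overlap. It was 1.61-fold lower (-0.69, SE 0.11, adjusted p = 0.0016). Without S3d 1 the differences were -0.77 and -0.94 for the Dnajb9 probes and -0.67 for Dnajc3, all still called.

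Hsp90b1 (GRP94), the Hsp90 of the ER that folds integrins and Toll-like receptors, gave no single answer. Its brighter probe read 4.57, 4.76 and 4.24 against 4.14, 4.29 and 4.33, and the groups overlapped (-0.27, SE 0.14, adjusted p = 0.13). Its second probe read 3.47, 3.20 and 2.89 on the arrays labelled control, against 0.52 and 0.55 on S3d 1 and S3d 2. The spot on S3d 3 carried an outlier flag and was left out of the fit, which gave -2.65 (SE 0.18, adjusted p = 0.00014), or -2.19 (adjusted p = 0.0037) with the spot kept. Both probes carry the same accession, yet the signal of the first exceeded that of the second by 1.10 to 1.56 on the log2 scale on the arrays labelled control and by 3.63 and 3.74 on S3d 1 and S3d 2. The result for Hsp90b1 therefore depends on the probe read.

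Of the disulfide isomerases, 1 of 3 was called. Pdia3 (ERp57), which works on the glycoproteins held by Calr and Canx, read 3.34, 3.47 and 3.07 on the arrays labelled control, against 2.84, 2.65 and 2.71 on those labelled S3d. It was 1.48-fold lower (-0.56, SE 0.12, adjusted p = 0.0060), and -0.62 without S3d 1. Pdia4 (ERp72) read 1.28, 0.98 and 0.68 against 0.78, 0.77 and 0.62, and Pdia6 (P5) read 5.70, 5.63 and 5.43 against 5.46, 5.40 and 5.62. The groups overlapped for both, and neither passed the test: the difference was -0.26 for Pdia4 (95% interval -0.65 to 0.13) and -0.10 for Pdia6 (-0.35 to 0.15). The interval of Pdia4 reaches past the difference of Hspa5, and that of Pdia6 does not.

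Among the settings that scaled or corrected the arrays, the choice decided the direction of Hspa5, Pdia6 and the first probes of Hsp90b1 and Canx. These averaged 6.88, 5.59, 4.53 and 3.22 on the arrays labelled control. Dimmer probes with small differences moved little under quantile normalization: the second Canx probe (average 0.04) stayed at -0.17. Pdia4 (average 0.98) went from -0.26 to -0.23. The raw signal was higher on the arrays labelled S3d for 11 of the 13 probes, by 1.86 to 3.36 times, while the 75th percentile of the arrays was 3.60 times higher. Under quantile normalization the differences of Hspa5 (0.28), the first Hsp90b1 probe (0.12), the first Canx probe (0.04) and Pdia6 (0.47) were above 0. Pdia6 then passed the test as higher (adjusted p = 0.0055), and of 8 called probes 7 were lower. Of all 31367 tested probes, 22140 were then called, 11159 of them lower. Centring on the median kept all 13 below 0 and called 12, where 53.8% of the 31367 tested probes were below 0 and 23179 were called. Normexp background correction called 0 (2 at an unadjusted p under 0.05), with Hspa5, the first probes of Hsp90b1 and Canx, and Pdia6 above 0. The other 9 probes were below 0 under each of these 4 settings. Calr was the lowest of the 10 brightest probes under all of them, from -2.05 with median centring to -1.22 with normexp.

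**Figure D3:**
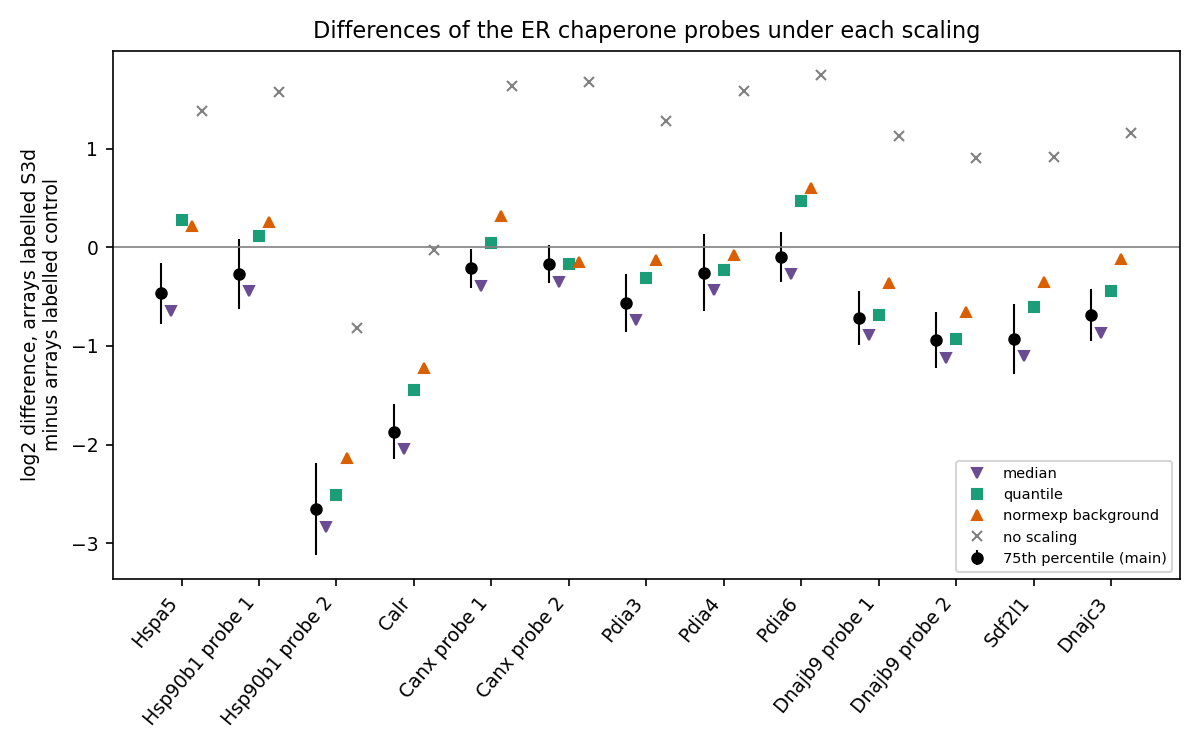
Log2 difference between arrays labelled S3d and arrays labelled control (y axis) for each member probe under 5 ways of making arrays comparable; error bars are the 95% intervals of the 75th percentile setting in limma. Calr and the second Hsp90b1 probe lie lowest under every setting plotted; Hspa5, the first Hsp90b1 and Canx probes and Pdia6 change side between the 4 settings that scale or correct the arrays, and with no scaling (grey crosses) 11 of the 13 lie above 0, where the median of all tested probes is 1.93.

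Comparing members within an array removes any constant scaling of that array. Each gene's brightest probe was set against the mean of the 10 members on the same array, as a description with no test. Calr stood 1.51, 1.58 and 1.58 above that mean on the arrays labelled control, against 0.39, 0.19 and 0.30 above it on those labelled S3d, a shift of -1.26. Sdf2l1 shifted by -0.32, also without overlap. In the other direction, Pdia6 shifted by 0.51, Canx by 0.39, Pdia4 by 0.35, Hsp90b1 by 0.34 and Hspa5 by 0.14, all without overlap between the groups. Pdia3, Dnajb9 and Dnajc3 kept overlapping positions, with shifts of 0.04, -0.11 and -0.08. The mean includes Calr, whose own shift moves the other members up, so the direction of a small shift such as that of Hspa5 can rest on Calr.

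The members also moved together among the arrays labelled control. Control 3 was the lowest of its group for 12 of the 12 member probes with a value on every array, by 0.10 to 0.30 below the group mean, whereas it was the lowest for 34% of all tested probes. The same held for 12 of 12 under quantile normalization. Of 90 other ER folding genes, 59 (65.6%) were lowest on control 3. On control 3 the enterocyte marker sum was 4063 (3663 and 4090 on control 1 and control 2) and the goblet sum 1424 (1353 and 1353). The sums of all other marker lists were lowest on control 3, as the members were. Paneth markers were at 1075 against 1104 and 1159, and plasma cell markers at 36.3 against 43.6 and 38.1. Smooth muscle markers were at 130 against 155 and 145. Ileum and colon markers were at 4.98 against 5.73 and 5.18, and pancreatic markers at 1.22 against 1.69 and 1.58. The part of these cells in the level of control 3 was not tested. Without control 3, 12 of the 13 member probes were called, including the first Hsp90b1 probe (-0.41, adjusted p = 0.017), Pdia4 (-0.41, adjusted p = 0.029) and both Canx probes. Of all 31367 tested probes, 21992 were called in that setting, 10210 of them lower. No single array of the S3d label had such a place: S3d 2 was the lowest for 6 probes, S3d 3 for 4 and S3d 1 for 2.

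**Figure D4:**
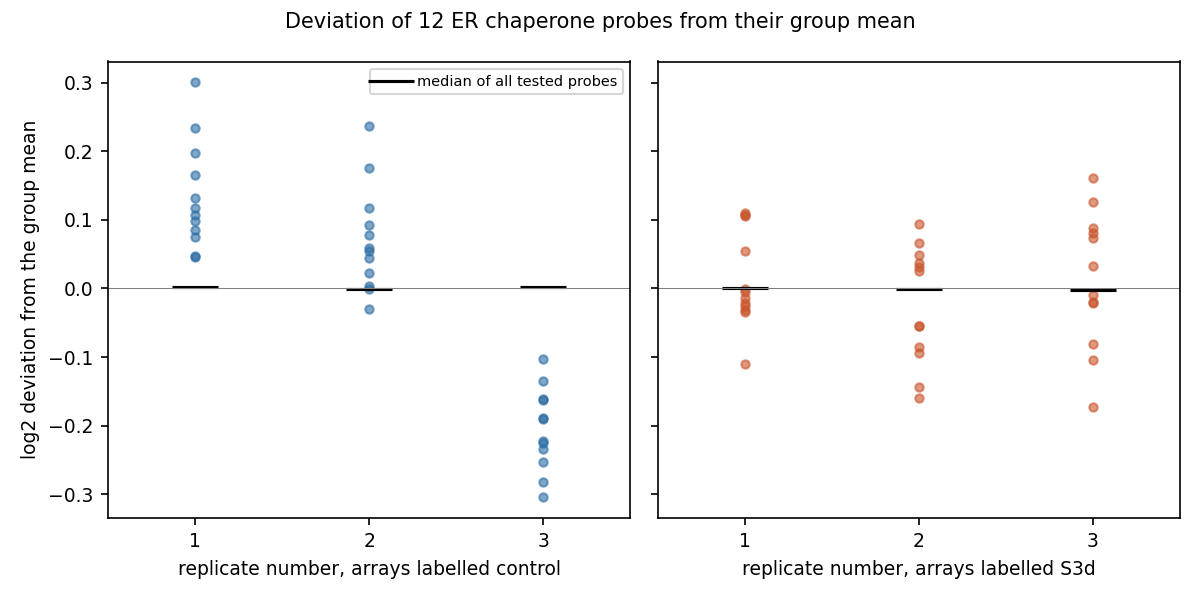
Log2 deviation from the group mean (y axis) for the 12 member probes with a value on every array, with replicate numbers on the x axis; black bars are the median over all tested probes. All 12 probes lie below 0 on control 3, by 0.10 to 0.30, while the arrays labelled S3d spread to both sides.

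The genes around the members were counted on their brightest probe. Of 108 genes in 7 lists of ER folding and quality control, 92 were matched to the array and 90 were tested. In limma 48 were lower and 23 higher on the arrays labelled S3d, where 37.4% of named genes were lower and 36.1% higher. The median difference of the 90 was -0.31. Higher genes were 32.4% of those called, 46.3% under quantile normalization and 53.0% in the deposited table, so the split rests on the scaling and the labels.

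Cofactors of BiP leaned the same way, with 5 lower and 2 higher of 8. The reductase Dnajc10 (-1.02) and the receptor chaperone Mesd (-0.97) were lowest, Hyou1 (GRP170), the exchange factor of BiP, was lower (-0.60, adjusted p = 0.013) and Creld2 was -0.58 (adjusted p = 0.036, or 0.078 without S3d 1). Sil1, another exchange factor (1.03), and the Hsp40 Dnajb11 (0.53) were higher. The call of Dnajb11 was lost without S3d 1 (adjusted p = 0.050), S3d 3 (0.074), control 1 (0.056) or control 3 (0.062). It was also lost with median centring (0.097), the replicate number as a block (0.080), the analysis of variance (0.067) and normexp (0.63). Oxidoreductases divided, with 6 lower and 4 higher of 16. Erp29 (-0.82) and Qsox1 (-0.76) were lowest, and the peroxiredoxin Prdx4 (0.84) and Selenof (1.40) highest of those called without overlap. Ero1a, the oxidase that recharges the isomerases, was lower (-0.57, adjusted p = 0.0071), but its difference turned to 0.037 with normexp. Its homologue Ero1b had a difference of -0.27 (adjusted p = 0.28), and of -0.49 without S3d 1 (adjusted p = 0.018). P4hb, the classical disulfide isomerase, had a difference of -0.05 (adjusted p = 0.57), and of 0.92 under quantile normalization (adjusted p = 0.00013).

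Glycoprotein quality control, the cycle that Calr and Canx serve, had 3 lower and 4 higher of 8. The lectin Os9 (-1.38) was lower, while the cargo receptor Lman1 (0.62) and Uggt1 (0.89, but -0.46 with normexp) were higher. Uggt1 is the sensor that returns misfolded proteins to Calr and Canx. The mannosidase Edem3, counted among the 3 lower, was above background on 1 of 3 arrays labelled S3d. It passed the filter only through the arrays labelled control, so its difference (-3.30) was not read as a result. Prolyl isomerases and collagen hydroxylases had 4 lower and 6 higher of 15, among them P3h1 (-1.19) and Plod2 (-1.18) lower and Ppic (0.97) higher. Fkbp9, counted among the 6 higher, was above background on 1 of 3 arrays labelled control. It passed the filter only through the arrays labelled S3d, so its difference (2.22, but -1.03 with normexp) was not read as a result. The translocon, signal peptidase and oligosaccharyltransferase genes, which admit and glycosylate new chains, had 14 lower and 2 higher of 20. Sec61g (-2.66) and Dad1 (-1.75) were lowest, and Srprb (0.63) and Spcs2 (0.99) were the higher ones.

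All 13 tested regulators of the unfolded protein response were called, 10 lower and 3 higher. Ppp1r15b (-2.47), which restores translation by removing phosphate from eIF2α, and Atf6 (-2.01), the sensor that acts on the ERSE, were lowest. Atf4, the transcription factor downstream of PERK, was also lower (-1.26). The kinase PERK itself (Eif2ak3) was higher (1.56), as was Mbtps1 (0.85), the protease that releases active ATF6. Ern1, Xbp1 and Manf were not matched to a probe by accession. Genes that return escaped chaperones to the ER had 6 lower and 2 higher of 10, with Copb1 (-0.62, but 0.044 with normexp) and Kdelr2 (-0.59) lower and Copb2 (0.29) and Kdelr3 (0.85) higher.

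**Figure D5:**
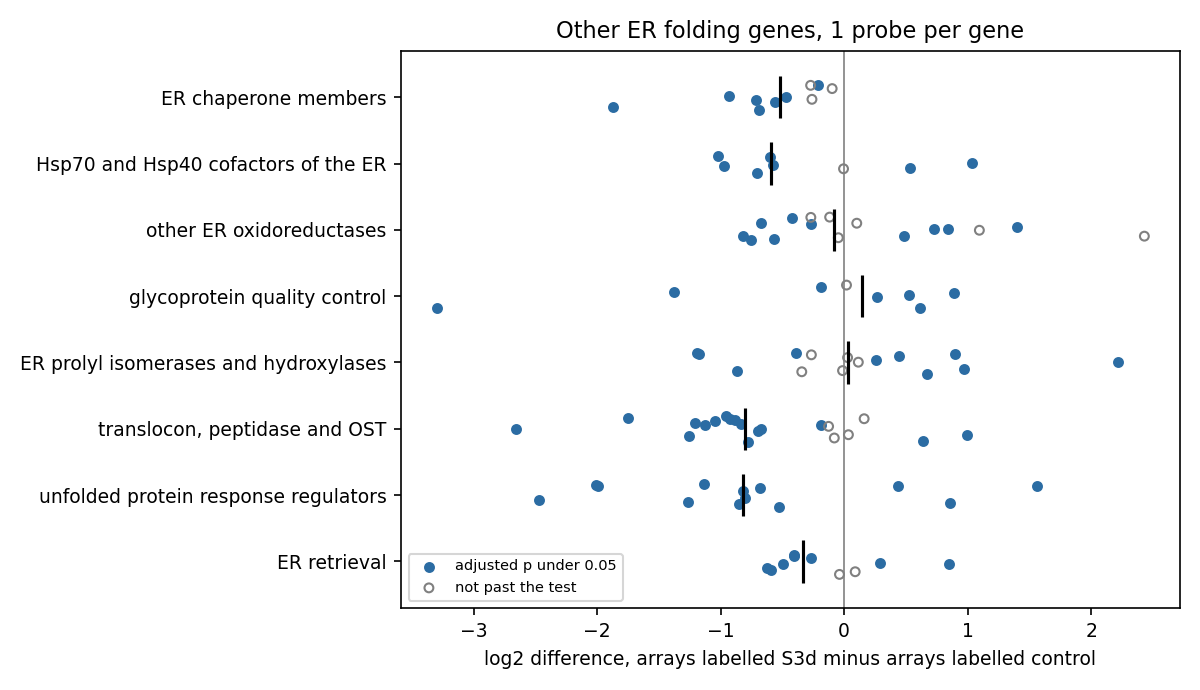
Log2 difference between arrays labelled S3d and arrays labelled control (x axis) for the 10 members and the tested genes of 7 other ER lists, 1 point per gene on its brightest probe. Filled points passed an adjusted p under 0.05 in limma and vertical bars are list medians; all members lie below 0 under this scaling, and the oxidoreductase point at 2.43 (Pdia2) rests on the array labelled S3d 1.

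All holders of a full ERSE in the searched window were also counted. Of the 21 genes with the element, 14 were tested by accession on the array, of which 5 are members (4 lower, 1 not past the test). Of the 9 others, 4 were lower, 1 was higher and 4 did not pass the test, close to the background of 37.4% lower. Among these, Birc5, a survival and mitosis gene, was lower (-1.38, adjusted p = 0.0014), Creld2 was -0.58, Derl3 was -0.0026 (adjusted p = 0.99) and Ankmy2 was higher (0.21, adjusted p = 0.028). Among the members themselves, those with the element ran from Calr (-1.87) to Canx (-0.21), and Sdf2l1 and Dnajb9, with no full match, lay between (-0.93 and -0.72).

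The summed levels of cell type markers also differed between the groups, and their part in these results was not tested. Markers of the labelled tissue were present: 12 of 12 enterocyte markers on the array were above background on all 6 arrays. In multiples of the 75th percentile, their summed level was 3663 to 4090 on the arrays labelled control and 1677 to 1726 on those labelled S3d. Apoa4, Fabp1, Apoa1 and Fabp2 make up most of that sum. Of the 12, 9 were called lower and Lct was called higher (0.66, adjusted p = 0.047). Anpep (0.07) and Apob (-0.09) did not pass the test. The sums of 5 goblet cell markers (1353 to 1424 against 459 to 481) and of 8 Paneth cell markers (1075 to 1159 against 315 to 572) were also lower. Of these markers, Clca1 (-0.03), Lyz2 (-0.08) and Reg3a (3.27, adjusted p = 0.11) did not pass the test, and Defa5 was below background on every array. The sums of smooth muscle markers (7, 130 to 155 against 117 to 138) overlapped. Among these, Mylk (-1.57), Des (-1.19) and Tagln (-0.96) were called lower, and Myh11 (0.98) and Smtn (0.30) higher. The sums of 7 plasma cell markers overlapped too (36.3 to 43.6 against 39.0 to 41.2), but Sdc1, which makes up most of the sum, was higher (0.30). Prdm1 (-1.84), Mzb1 (-0.92), Pou2af1 (-0.79) and Tnfrsf17 (-0.61) were lower with the members, and Irf4 and Derl3 did not pass the test. Of genes that mark more distal gut, Aqp8 was higher (2.78), the ileal bile acid genes Fabp6 (-2.70) and Slc10a2 (-2.41) were lower, Car1 did not pass the test, and Hoxb13 was below background on every array.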

How the data were processed

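Jejunal RNA of control and S3d rats was hybridised by the authors' contractor to 1-colour (Cy3) Agilent arrays and read with Feature Extraction 10.7.3.1. The authors deposited 1 scanner file per array, whose processed signal is a spot intensity after background subtraction and before scaling between arrays. They also deposited 1 table of log2 values with 41105 rows, whose sorted columns differ by at most 0.0025, as after quantile normalization. The program used for that table is not given in the sources used here.

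Here the log2 processed signal minus the array's 75th percentile was used. Control and outlier spots were dropped and repeated spots averaged. A probe was tested where every array of at least 1 group read it well above background (31367 of 41012). No spot was saturated: the saturated count was 0 on each array. Groups followed the labels of the scanner files. The test was limma's moderated linear model (version 3.58.1, R 4.3.3, no covariate) with Benjamini-Hochberg adjustment over all tested probes, and a probe was called at an adjusted p under 0.05. The test was checked on simulated data. Of the probes, 17512 took a symbol from their accession in the RefSeq table of GRCr8, which also gave the promoters. The brightest probe stood for a gene outside the members. Genes named outside the members are, per list, the 2 largest rises and the 2 largest falls among called genes whose groups did not overlap, plus Xbp1, Atf6, Eif2ak3, Ern1, Atf4, P4hb, Hyou1, Ero1a, Ero1b, Creld2 and Manf, and the pancreas-rich Pdia2 and Erp27, holders of the ERSE, cell type markers and the genes of the study's real-time PCR, which were chosen after their values were seen. The members and lists were chosen with earlier results of these data known. Alternatives were other scalings, a normexp background correction (offset 50, on the median signal), the deposited table, other filters, fits and thresholds, and each array left out. The number of arrays limits the precision.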

Additional observations from a re-analysis of the deposited data

How the results depend on the processing

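Counts of called probes held within 1.5 times under every alternative except normexp, which called 0 of 13 member probes (2 at an unadjusted p under 0.05), 4 of 90 other ER folding genes and 1752 of 31367 probes, where the main setting called 9, 71 and 23202. Its median over all tested probes was -0.69. Of the called probes in all, 53.4% were higher, against 31.0% with normexp and 98.1% without scaling, and the cause was not tested. Leaving out each array in turn called 7 to 12 member probes (12 without control 3), 65 to 70 other ER folding genes and 21442 to 22813 probes. No array was needed for the calls of Calr, Sdf2l1, Dnajc3, Dnajb9, Pdia3 or the second Hsp90b1 probe. With the replicate number as a block, 8 member probes were called and Canx was lost (adjusted p = 0.081), with 66 other ER folding genes and 22212 probes called. The numbers do not pair the samples: deviations of arrays with the same number correlated at 0.020, 0.022 and -0.049, and 1 of 3 correlated best with its own number. The slide as a block could not be fitted, since no slide holds both groups. All 13 member probes were well above background on each array whose spot was kept. The intensity trend and array weights changed no member call. The filter on all 6 arrays left 12 member probes, of which 8 were called. The analysis of variance named in the methods, no filter on dim probes and outlier spots kept each lost the Canx call (8 of 13). At an unadjusted p under 0.01 and at least 1.5-fold, 6 member probes passed. With a gene's probes averaged, 7 of 10 members were called.

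The alternatives that turned a difference around, on the log2 scale, were the following. Quantile normalization gave the first Canx probe 0.041, the first Hsp90b1 probe 0.12, Hspa5 0.28 and Pdia6 0.47, and among other genes P4hb 0.92. Normexp gave Hspa5 0.21, the first Hsp90b1 probe 0.25, the first Canx probe 0.32 and Pdia6 0.60, and among other genes Fkbp9 -1.03, Uggt1 -0.46, Ero1a 0.037, Copb1 0.044 and P4hb 0.61. With no scaling between arrays, where the median of all tested probes was 1.93, the members read the second Dnajb9 probe 0.90, Sdf2l1 0.92, the first Dnajb9 probe 1.13, Dnajc3 1.16, Pdia3 1.28, Hspa5 1.38, the first Hsp90b1 probe 1.57, Pdia4 1.59, the first Canx probe 1.63, the second Canx probe 1.67 and Pdia6 1.75. Of the other genes, Dad1 0.10, Os9 0.47, Atf4 0.58, P3h1 0.65, Plod2 0.67, Dnajc10 0.82, Mesd 0.87, Erp29 1.03, Qsox1 1.09, Copb1 1.22, Hyou1 1.24, Kdelr2 1.25, Creld2 1.27, Ero1a 1.27, Ero1b 1.58 and P4hb 1.80 also turned. The deposited table, whose labels are exchanged against those of the scanner files, turned most signs, but not those of Hspa5, Pdia6 and the first probes of Hsp90b1 and Canx, which quantile normalization turns as well. It gave the second Canx probe 0.17, Pdia4 0.22, Pdia3 0.31, Dnajc3 0.44, Sdf2l1 0.61, the first Dnajb9 probe 0.69, the second Dnajb9 probe 0.93, Calr 1.45 and the second Hsp90b1 probe 2.03, and among other genes Fkbp9 -1.78, Selenof -1.66, Eif2ak3 -1.46, Spcs2 -1.07, Sil1 -0.94, Prdx4 -0.93, Ppic -0.92, Lman1 -0.91, Kdelr3 -0.90, Mbtps1 -0.89, Uggt1 -0.73, Copb2 -0.73, Srprb -0.69, Dnajb11 -0.53, Ero1a 0.22, Copb1 0.25, Hyou1 0.26, Creld2 0.40, Qsox1 0.42, Erp29 0.51, Ero1b 0.54, Kdelr2 0.57, Dnajc10 0.68, Atf4 0.74, Mesd 0.91, P3h1 1.11, Dad1 1.24, Plod2 1.43, Os9 1.45, Atf6 1.92, Sec61g 2.42, Ppp1r15b 2.53 and Edem3 3.78. Its called member probes were 6 higher and 1 lower.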
